A study of Mus musculus with 12 samples.

Results

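The Hes and Hey genes encode basic helix-loop-helix repressors of the hairy and enhancer-of-split type. The 9 members *Hes1*, *Hes2*, *Hes3*, *Hes5*, *Hes6*, *Hes7*, *Hey1*, *Hey2* and *Heyl* were taken by symbol from the 45706 genes of the deposited count table, and all 9 were found. RNA of ES cell-derived mouse cells of strain C57BL/6 was sequenced in 4 groups of 3 biological replicates. NPC are glial neural progenitors labelled as *Sox1* negative (Baseline, not sorted), and NPC(+) are *Sox1*-positive glial progenitors (labelled Sox1posGP, sorted), in which dCas9-VP64, a Cas9 without cutting activity joined to an activator, had been directed to the *Sox1* promoter. NSC are unsorted neuroepithelial cells after neural induction of ES cells, and NR are neuroepithelial cells of neural rosettes sorted for GFP. The cells of all 4 groups derive from ES cells with GFP placed in *Sox1*, which the study describes for the NPC as 1 of the 2 alleles. The NPC lines were grown from single cells after dCas9-VP64 was introduced and were kept in medium with bFGF and EGF. The line behind each NPC or NPC(+) library is not given in the sources used here. The study also describes guide RNAs brought in by lentivirus and puromycin selection, and its text does not say whether the NPC libraries went through these steps. If they did not, these steps cannot be told apart from induction. By the labels sorting goes together with induction, and the effects of both then cannot be told apart between NPC and NPC(+). The sources disagree here, since the text of the study speaks of sorted cells for NPC with and without induction.

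A Notch receptor bound by a Delta-like or Jagged ligand of a neighbouring cell is cut, and its intracellular domain enters the nucleus, where it joins the DNA-binding protein Rbpj and a Mastermind coactivator. *Hes1*, *Hes5*, *Hey1*, *Hey2* and *Heyl* are well-known targets of this complex, and in the embryonic brain Hes1 and Hes5 repress proneural genes and keep progenitors undifferentiated. Hes6 differs in that it is known to inhibit Hes1, Hes3 is a repressor of the early neuroepithelium, and Hes7 is the oscillator of the presomitic mesoderm. These genes can also respond to signals other than Notch, so their RNA alone is no direct measure of Notch activity.

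RefSeq promoter windows (GRCm38.p6, 250 bases before to 50 bases from the start site on) were found for 4 of the 9 members, *Hes5*, *Hes6*, *Hes7* and *Hey2*. The windows of *Hes5* (chr4:154960673-154960972, plus strand), *Hey2* (chr10:30842734-30843033, minus strand) and *Hes7* (chr11:69120203-69120502, plus strand) are shown because each holds the 7-letter core of the Rbpj motif, GTGGGAA on either strand, which is in capitals.
Hes5: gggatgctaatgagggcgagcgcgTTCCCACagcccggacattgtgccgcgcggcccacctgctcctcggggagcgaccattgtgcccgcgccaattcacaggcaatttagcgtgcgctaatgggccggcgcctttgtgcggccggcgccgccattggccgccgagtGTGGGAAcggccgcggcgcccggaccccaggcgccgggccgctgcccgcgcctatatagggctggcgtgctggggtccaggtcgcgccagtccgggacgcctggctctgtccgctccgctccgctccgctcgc
Hey2: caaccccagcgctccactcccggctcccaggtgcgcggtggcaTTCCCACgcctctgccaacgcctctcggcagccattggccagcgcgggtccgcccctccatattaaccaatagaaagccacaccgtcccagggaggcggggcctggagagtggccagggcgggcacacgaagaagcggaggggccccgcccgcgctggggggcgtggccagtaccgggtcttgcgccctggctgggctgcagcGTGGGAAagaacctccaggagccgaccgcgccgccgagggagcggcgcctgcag
Hes7: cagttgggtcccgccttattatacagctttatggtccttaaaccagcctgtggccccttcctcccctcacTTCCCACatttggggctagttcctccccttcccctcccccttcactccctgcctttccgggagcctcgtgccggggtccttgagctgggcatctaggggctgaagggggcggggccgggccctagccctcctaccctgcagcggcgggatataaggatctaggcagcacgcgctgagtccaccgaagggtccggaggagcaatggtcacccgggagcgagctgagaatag
*Hes5* held 2 matches, which begin at position -226 from the start site on the other strand and at -83 on the strand of the gene. *Hey2* also held 2, at -207 on the other strand and at -4 on the strand of the gene, whereas *Hes7* held 1, at -180 on the other strand. Neither of the 2 windows of *Hes6* held a match. Of 32851 promoter windows of this length 6.38% held at least 1 match and 0.256% held at least 2. The same letters therefore stand before a gene with 322 to 6157 reads in each of the 12 libraries (*Hes5*), a gene with 0 to 139 (*Hey2*) and a gene with 0 to 6 (*Hes7*). The shorter core TGGGAA, which lies within GTGGGAA, stands in 25.6% of all windows, and in these members it was found only at those same places. Hes and Hey proteins bind class C sites (CACGNG, in 27.5% of all windows), N-boxes (CACNAG, 42.5%) and some E-boxes (CANNTG, 72.3%), 3 motifs that share some of their forms. On either strand, *Hes7* held 2 class C sites, 1 N-box that is also 1 of those class C sites, and 2 E-boxes, while *Hes5* and *Hey2* held 1 E-box each and neither of the other motifs. The 2 windows of *Hes6* (chr1:91413989-91414288 and chr1:91413173-91413472, minus strand) held 3 and 1 E-boxes, the first also 1 class C site and the second 2 N-boxes, and the TATA box TATAAA, which stands in 13.6% of all windows, was found only at -28 in the second of them.

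Totals of the deposited counts ran from 3407066 to 6315574 in NPC(+), from 4939268 to 18351483 in NPC, from 29046205 to 43095688 in NSC and from 16707006 to 34594885 in NR. Levels are given in CPM, the reads of a gene per 1e+06 reads of its library after TMM scaling, and 3 reads over the libraries of a group, taken as the floor, correspond to 0.104 CPM (NPC), 0.190 (NPC(+)), 0.0282 (NSC) and 0.0362 (NR). These floors, and all intervals given, reflect counting error alone, since reads of amplified cDNA need not stem from separate molecules. *Sox1*, the gene targeted, lay between 4.83 and 6.00 CPM in NPC and between 20.3 and 21.7 in NPC(+). It lay between 48.6 and 64.9 in NSC, at 4.62 in NR replicate 1 and at 19.2 or more in NR replicates 2 and 3, so the library labelled NR replicate 1 stood at the level of NPC although it is labelled as sorted. Summed over 6 pluripotency markers, the NR libraries had 1345 to 2553 CPM (*Nanog* 113.2 to 180.5) against 51.5 to 142.8 in the NSC libraries and at most 45.5 in NPC and NPC(+), and summed over 7 neural stem and progenitor markers they had 788.4 to 1321 CPM against 2179 or more in every other group. Much of the sum in NPC and NPC(+) was *Slc1a3* (2605 ± 156 and 1182 ± 30 CPM, SD, n = 3, against 42.3 ± 4.4 in NR). Against NPC, 5 of these markers were called lower in NR and 2, *Nes* and *Msi1*, higher. NPC(+) had 3 called higher than NR and 2, *Sox2* and *Msi1*, lower. All 7 neural stem and progenitor markers were called lower in NR than in NSC. The part of these cells in the NR values was not tested, and in bulk samples fewer cells of a type and less RNA per cell cannot be told apart. *Gfap*, which the study uses as a glial marker, was at 1.46 to 3.04 CPM in NPC. The 5 glial markers together summed to 657.8 to 658.5 CPM in NPC, 363.1 to 379.7 in NPC(+) and at most 15.7 in NSC and NR. Nearly all of this sum was *Aldoc* (639.8 ± 1.7 CPM in NPC and 347.1 ± 10.2 in NPC(+), SD, n = 3), which was called lower in NPC(+). *Aqp4* and *Aldh1l1* were called higher than in NPC in each other group, at no more than 5.79 CPM on average, and *Gfap* and *S100b* were not called in NPC(+) against NPC (0.40 and 0.26 on the log2 scale) but were called lower in NSC and NR.

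**Figure D1:**
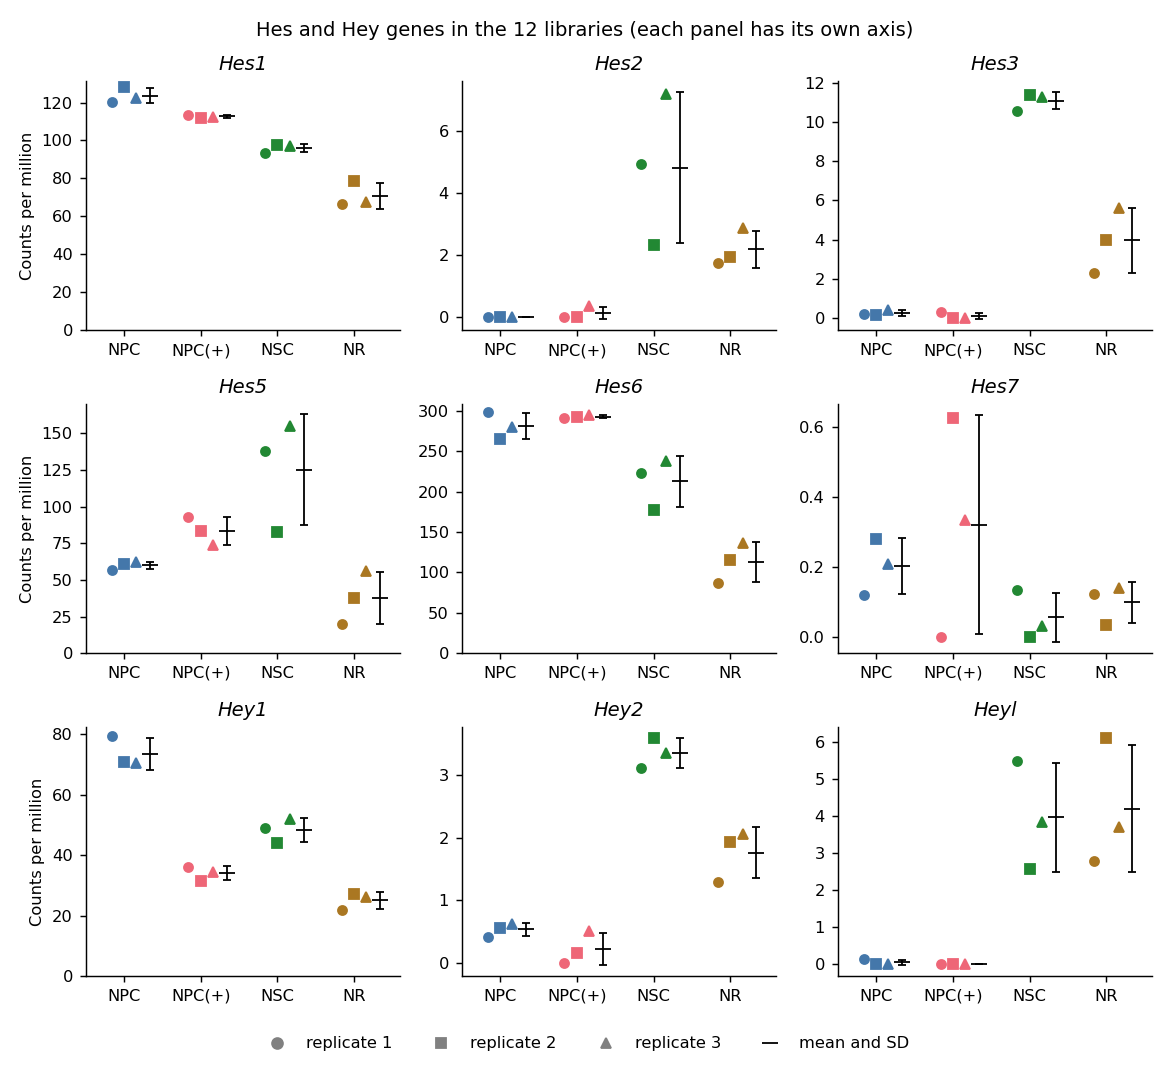
Level of each of the 9 genes in CPM (y axis, 1 panel and 1 axis per gene) in the 3 libraries of each group (x axis), with the mean and SD as black bars. *Hes1*, *Hes5*, *Hes6* and *Hey1* are present in all 12 libraries, *Hes2*, *Hes3*, *Hey2* and *Heyl* are high in NSC and NR only, and *Hes7* is at no more than 0.628.

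The 9 genes fell into 3 sets by level. *Hes1*, *Hes5*, *Hes6* and *Hey1* lay above the floor in all 12 libraries. *Hes2*, *Hes3*, *Hey2* and *Heyl* had at most 7 reads in any NPC or NPC(+) library and 21 to 474 in any NSC or NR library. They passed the filter on low counts only through NSC and NR. NSC and NR therefore had to differ from NPC and NPC(+) in these genes, and such calls add no support. *Hes7* had 0 to 6 reads in every library and was the only member that did not pass the filter. Each of the 8 members tested differed among the 4 groups by the quasi-likelihood F test of edgeR, with p adjusted after Benjamini and Hochberg over 17003 genes and called under 0.1, with the largest adjusted p for *Hes5* (3.94e-04). This is close to the background, since 92.5% of all genes tested differed.

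NPC(+) against NPC, the comparison that asks what accompanied activation of *Sox1*, gave a fall of *Hey1* and no call for the 7 other members tested. Called higher were 0 members and called lower was 1, against 21.6% and 22.7% of all genes tested. *Hey1*, a Notch target of vessels and neural progenitors (chromosome 3 from 8663359 to 8667256), was at 79.5, 70.7 and 70.3 CPM in the 3 NPC libraries and at 36.2, 31.6 and 34.5 in those of NPC(+). Every NPC(+) library lay below every NPC library, and 52.7% of all genes tested were separate in either direction. The means of *Hey1* were 34.1 ± 2.3 in NPC(+) and 73.5 ± 5.2 in NPC (SD, n = 3). The log2 fold change was -1.12 (standard error 0.12), or 2.17-fold lower (edgeR, adjusted p = 5.27e-06), and it ran from -1.16 to -1.02 and was called in each of 16 alternatives. The 12 expressed genes (mean above 3 log2 CPM) within 5 Mb of *Hey1* had a median log2 fold change of -0.22 and all 463 expressed genes of chromosome 3 one of 0.04.

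*Hes5*, a member best known from neural progenitors (chromosome 4 from 154960923 to 154962371), had 57.0, 60.8 and 62.0 CPM in NPC and 92.9, 83.2 and 73.6 in NPC(+). All 3 NPC(+) libraries lay above all 3 NPC libraries, by 1.39-fold on average, as was the case in either direction for 52.7% of all genes tested. In the fit of all 12 libraries this was not called, at 0.47 on the log2 scale (standard error 0.30, edgeR adjusted p = 0.242). It was called with only these 6 libraries in the fit (0.52, adjusted p = 3.16e-05), without a filter on low counts (0.48, 0.00134), and without the NR libraries (0.50, 0.0528), an alternative added after seeing the values. Leaving out NR replicate 1 alone also brought *Hes5* to a call, which made 2 members called. The biological coefficient of variation fitted within each group was 7.69% in NPC and 4.07% in NPC(+) but 18.6% in NSC and 21.1% in NR, and all groups share 1 estimate of the spread in the fit of 12 libraries. *Gm20421*, an antisense gene that overlaps *Hes5*, had at most 7 reads in a library.

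*Hes1* (chromosome 16 from 30064384 to 30067796), the effector used in most tissues, had 120.2, 128.1 and 122.5 CPM in NPC and 113.5, 112.0 and 112.4 in NPC(+). The groups did not overlap, yet the difference was small, at -0.13 on the log2 scale (standard error 0.080, edgeR adjusted p = 0.216), and was called in 0 of 16 alternatives. On the same chromosome the 310 expressed genes had a median of -0.43 and the 40 within 5 Mb of *Hes1* one of -0.41, against -0.06 for all 9666 expressed genes. *Hes6* (chromosome 1 from 91411483 to 91414038) had 297.7, 265.1 and 279.2 CPM in NPC and 291.5, 292.2 and 294.4 in NPC(+), which overlapped. Its log2 fold change was 0.06 (standard error 0.14, edgeR adjusted p = 0.791).

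The members of low level gave little to compare between NPC and NPC(+). *Hey2* had 14 reads over the NPC libraries and 4 over NPC(+), a ratio of 1.93-fold lower with a 95% interval from 0.606 to 8.04, and *Hes3* had 6 and 1. *Hes2* had 0 reads in NPC and 2 in NPC(+), and *Heyl* had 2 and 0, at or under the floor in both groups, so that no fold is given. None of these 4 differences was detectable at this depth.

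**Figure D2:**
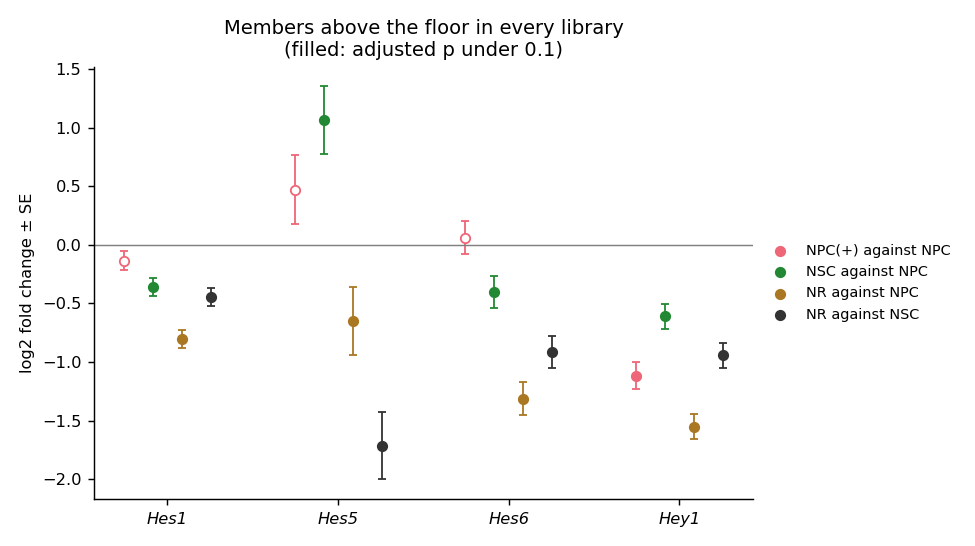
Log2 fold change (y axis) with its standard error for the 4 genes above the floor in all 12 libraries (x axis) in 4 comparisons, with filled points for an adjusted p under 0.1. In NPC(+) only *Hey1* is filled, at -1.12, while *Hes5* is the only gene that was higher in NSC and lower in NR than in NPC.

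NSC against NPC contrasts early neuroepithelium with the glial progenitors. *Hes5* was higher in NSC, *Hes1*, *Hes6* and *Hey1* were lower, and the 4 members near the floor in NPC were present. Called higher were 5 members and called lower 3, against 44.4% and 33.7% of all genes tested. Of the 4 members above the floor in every library, 1 was called higher and 3 lower. *Hes5* had 137.7, 83.0 and 155.0 CPM in NSC, a mean of 125.2 ± 37.6 (SD, n = 3) against 59.9 ± 2.6 in NPC. The 3 NSC libraries spread widely but all lay above NPC, with a log2 fold change of 1.07 (standard error 0.29, edgeR adjusted p = 0.00423). *Hey1* had 49.0, 43.96 and 52.1 CPM in NSC, below every NPC library (-0.61, standard error 0.11, adjusted p = 1.61e-04). *Hes1* had 93.6, 97.5 and 97.2 CPM, 1.29-fold lower than NPC (adjusted p = 8.08e-04), and *Hes6* had 223.3, 177.5 and 237.4, 1.32-fold lower (adjusted p = 0.0186). Neither gene overlapped between NSC and NPC, as was the case in either direction for 77.3% of all genes tested. The 44 expressed genes within 5 Mb of *Hes6* had a median log2 fold change of -0.53. That of the 556 expressed genes of chromosome 1 was -0.33, against -0.04 for all 9666 expressed genes.

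Of the members that NPC lacked or nearly lacked, *Hes3* (chromosome 4 from 152285972 to 152291662) was the most abundant in NSC, with 10.6, 11.4 and 11.3 CPM and 6 reads over the NPC libraries. The pooled ratio was 52.8-fold (95% interval 24.2 to 144.2). *Hes2* (chromosome 4 from 152158867 to 152162469) had 4.92, 2.31 and 7.19 CPM in NSC and no read in NPC, which makes it at least 47.0-fold higher against a floor of 3 reads over the group. *Heyl*, a Notch target known from mural cells and muscle progenitors (chromosome 4 from 123233556 to 123249875), had 5.48, 2.55 and 3.84 CPM in NSC and 2 reads over NPC, a pooled ratio of 60.01-fold (95% interval 16.5 to 497.1). *Hey2*, known from heart and vessels (chromosome 10 from 30832359 to 30842801), had 3.11, 3.59 and 3.35 CPM, 6.80-fold above NPC by pooled reads (95% interval 4.0 to 12.6). All 4 were separate from NPC in every library, which adds no support, since they passed the filter only through NSC and NR. The 6 mural cell markers, which are genes of tissues where *Heyl* is known, summed to 217.0 to 1133 CPM in NSC and 292.8 to 928.1 in NR against at most 5.34 in NPC and NPC(+), and their part in the level of *Heyl* was not tested. The 6 endothelial markers, which are genes of vessels, summed to 7.63 to 11.6 CPM in NSC and 75.1 to 135.0 in NR. In NPC and NPC(+) they summed to at most 3.45, and their part in the level of *Hey2* was not tested.

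NR against NPC gave lower values for all 4 members present in every library. Called higher were 4 members and called lower 4, against 45.6% and 34.1% of all genes tested. Of the 4 members above the floor in every library, 0 were called higher and 4 lower. *Hes6* had 86.8, 115.3 and 136.1 CPM in NR replicates 1 to 3 (log2 fold change -1.31, standard error 0.14, edgeR adjusted p = 1.35e-06). *Hey1* had 21.8, 27.3 and 26.2 CPM, the lowest of the 4 groups and 2.93-fold under NPC (adjusted p = 2.15e-08). *Hes1* had 66.3, 78.6 and 67.4 CPM, 1.74-fold under NPC (adjusted p = 5.02e-07). None of these 3 genes overlapped between NR and NPC, as was the case in either direction for 77.8% of all genes tested. The same 3 were called without NR replicate 1. *Hes5* had 19.8, 37.7 and 55.8 CPM, below NPC in all 3 libraries but spread widely within the group, and its call at -0.65 on the log2 scale (standard error 0.29, adjusted p = 0.0560) was lost without NR replicate 1 (-0.39, 0.126), without NPC replicate 3 (-0.62, 0.110) and under upper-quartile scaling (-0.55, 0.108). Without NR replicate 1, 7 members in all were called.

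The 4 members near the floor in NPC were also present in NR. *Hes3* had 2.28, 4.0 and 5.62 CPM in NR, 20.9-fold above NPC by pooled reads (95% interval 9.49 to 57.2), and *Heyl* had 2.77, 6.10 and 3.71, 63.5-fold above it (17.4 to 525.9). *Hes2* had 1.72, 1.94 and 2.87 CPM, at least 22.0-fold higher against the floor, and *Hey2* had 1.29, 1.94 and 2.05, 3.81-fold above NPC (2.21 to 7.14). Every NR library lay above every NPC library for these genes, which again adds no support because of how they passed the filter. *Hes7* did not follow them, with 2, 1 and 5 reads in NR, and of 5 presomitic mesoderm markers only *T*, a gene also of the primitive streak, was above 1 CPM in NR (43.04 ± 32.0, SD, n = 3). *Mesp2* had 0.991 CPM in NR, *Tbx6* 0.284, *Ripply2* 0.189 and *Msgn1* 0.0978.

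NR against NSC gave lower values in NR for each of the 8 members tested except *Heyl*. Called higher were 0 members and called lower 7, against 30.0% and 26.6% of all genes tested. The median log2 fold change of the 8 members tested was -0.93 against 0.01 for all 17003 genes, and 6 members did not overlap, as did 56.7% of all genes. *Hes5* differed most, by 3.28-fold (log2 fold change -1.72, standard error 0.29, edgeR adjusted p = 2.73e-04). *Hes3* followed with -1.46 (adjusted p = 0.00113) and *Hes2* with -1.13 (0.0407), of which *Hes2* overlapped between the groups and was lost without NR replicate 1 (0.106), without NSC replicate 3 (0.190) and after thinning all libraries to the smallest total (0.256). *Hey1* (-0.94), *Hes6* (-0.91), *Hey2* (-0.90) and *Hes1* (-0.44) were lower with an adjusted p of at most 0.0163, and these 4 were called without NR replicate 1 as well, when 6 members in all were called. *Heyl* showed 0.09 (standard error 0.36, adjusted p = 0.857), and the few reads of *Hes7*, which was not tested, gave a pooled ratio of 1.47-fold higher in NR (95% interval 0.466 to 4.76). The neural stem and progenitor markers given for NR moved the same way as these members, and how much of the difference goes with them was not tested.

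NPC(+) was set against NSC and NR as well, 2 comparisons that share the NPC(+) libraries with each other and with the comparison against NPC. Against NSC, 2 members were called higher (*Hes1* at 0.23 and *Hes6* at 0.46 on the log2 scale) and 6 lower, against 31.4% and 41.8% of all genes tested. Of the 4 members above the floor in every library, 2 were called higher and 2 lower. *Hey1* was lower by -0.51 (standard error 0.11, edgeR adjusted p = 0.00122), with all NPC(+) libraries under all NSC libraries. In either direction 74.3% of all genes tested did not overlap between these groups. *Hes5* was lower by -0.60 (adjusted p = 0.0810) but overlapped, since NSC replicate 2 lay within the NPC(+) range, and it was called in 9 of 16 alternatives, which omit single libraries of the compared groups only. It was lost when NSC replicate 1 (0.183) or 3 (0.276), NPC replicate 1 (0.129) or any of the NPC(+) replicates 1 (0.122), 2 (0.142) or 3 (0.198) was left out, under upper-quartile scaling (0.105) and after thinning (0.135), whereas the call of *Hes1* was lost only without a filter on low counts (0.415). *Hes2* (38.9-fold by pooled reads, 95% interval 10.7 to 321.6), *Hes3* (174.6-fold, 31.3 to 6901), *Hey2* (13.1-fold, 5.08 to 48.4) and *Heyl* (at least 22.0-fold) were lower in NPC(+). The calls of these 4 genes add no support, since they passed the filter only through NSC and NR. *Hes7*, with 0, 4 and 2 reads in NPC(+) and 6, 0 and 1 in NSC, was 5.77-fold higher in NPC(+) by pooled reads (95% interval 1.60 to 20.05). Its libraries overlapped between the groups, and it was called without a filter on low counts (edgeR, adjusted p = 0.0608) and in the DESeq2 test (0.0900).

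Against NR, 4 members were called higher and 4 lower, against 32.0% and 44.4% of all genes tested. The 4 called higher were the members above the floor in every library. *Hes6* was higher in NPC(+) by 1.37 (standard error 0.14, edgeR adjusted p = 1.16e-06), *Hes5* by 1.12 (0.29, 0.00350), *Hes1* by 0.67 (0.079, 4.40e-06) and *Hey1* by 0.43 (0.11, 0.00384) on the log2 scale. No NPC(+) library overlapped with NR in any of these, as was the case in either direction for 75.9% of all genes tested. The count of 8 members called was the same without NR replicate 1. *Hes2*, *Hes3*, *Hey2* and *Heyl* were lower in NPC(+), as they were against NSC. Because of how they passed the filter, their calls add no support in either comparison. For these 4 genes NPC(+) had 0 to 3 reads in each library and NPC 0 to 7. They were also the only members to change by more than 4-fold at the thresholds of the study. That held for all 4 in NSC against NPC (25.0% of all genes tested), in NPC(+) against NSC (22.2%) and in NPC(+) against NR (26.1%), and for 3 of them, without *Hey2*, in NR against NPC (28.0%). No member did so in NPC(+) against NPC (5.79%) or in NR against NSC (7.46%).

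The 4 members present in every library each had a different order of mean levels over the 4 groups. *Hes1* ran from NPC over NPC(+) and NSC to NR, and the neighbours NPC and NPC(+) were not separated by the test. *Hey1* ran from NPC over NSC and NPC(+) to NR with a call at each step, so its level in NPC(+) fell between that of NSC and NR. *Hes5* ran from NSC over NPC(+) and NPC to NR, with no call for the step from NPC(+) to NPC. *Hes6* ran from NPC(+) and NPC, which were not separated, to NSC and then NR. *Hes2*, *Hes3* and *Hey2* ran from NSC to NR and then to the NPC groups, while NR and NSC did not differ beyond their spread for *Heyl*.

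**Figure D3:**
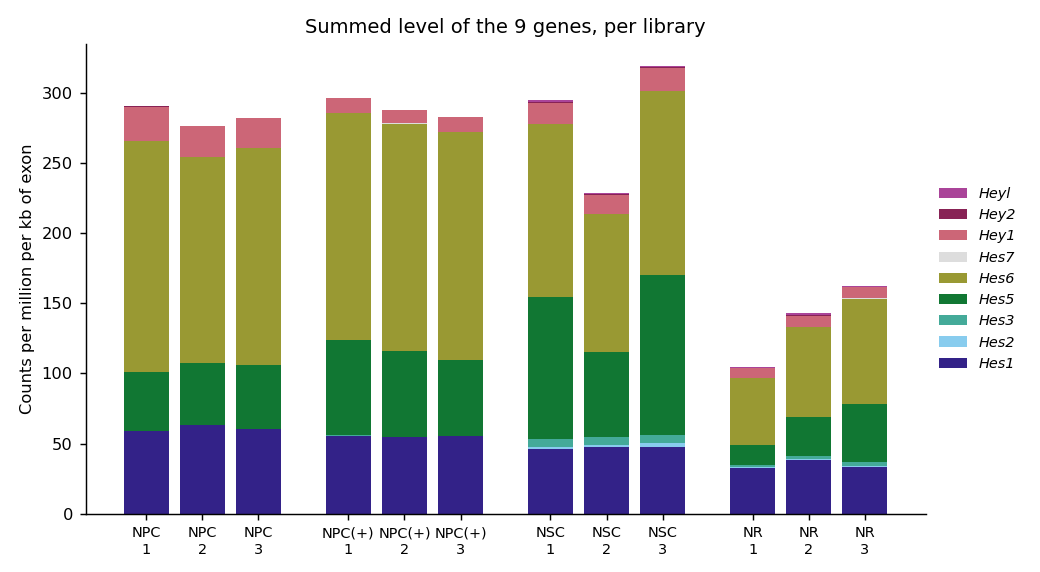
Level of the 9 genes per kb of exon, stacked, in each of the 12 libraries (x axis, group and replicate), in CPM per kb (y axis). *Hes6* is the largest block in all libraries, and the summed bar is between 276.1 and 296.4 in NPC and NPC(+) and between 104.5 and 162.6 in NR.

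Levels between genes were compared per kb of exon, with the exons of all transcripts of a gene merged. *Hes6* held 54.9% ± 1.8 of the summed level of the 9 genes in NPC (SD, n = 3) and 56.0% ± 1.6 in NPC(+), against 42.0% ± 0.90 for NSC and 45.6% ± 0.87 for NR. The share of *Hes5* was 15.6% ± 1.0 in NPC, against 21.1% ± 2.0 in NPC(+) and 32.2% ± 4.9 in NSC, with 19.5% ± 5.6 for NR. *Hey1* held 7.96% ± 0.39 in NPC but 3.61% ± 0.22 in NPC(+), under its shares of 5.33% ± 0.49 in NSC and 5.73% ± 0.73 in NR. The summed level was 282.8 ± 7.0 CPM per kb in NPC and 289.0 ± 6.8 in NPC(+), ranges that overlapped, so the composition moved while the sum differed by less than the spread. In NR the sum was 136.6 ± 29.5, below that of each other group in all libraries.

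Ratios within a library do not depend on the scaling between libraries. The ratio of *Hes5* to *Hes1* per kb was 0.709, 0.710 and 0.756 in NPC and 1.22, 1.11 and 0.978 in NPC(+). In NSC it was 2.20, 1.27 and 2.38, and in NR 0.447, 0.718 and 1.24. In this ratio the NPC(+) libraries thus lay between NPC and NSC without overlap with either, whereas NR spanned all of the NPC and NPC(+) values. The ratio of *Hey1* to *Hes1* was 0.413, 0.345 and 0.358 in NPC and 0.199, 0.176 and 0.192 in NPC(+), with no overlap, and 0.281 to 0.334 in NSC and 0.205 to 0.243 in NR. *Hes6* to *Hes5* in NPC(+) (2.365 to 3.02) also lay between NPC and NSC. *Hey1* to *Hes5* in NPC(+) (0.158 to 0.196) lay within the range of NSC (0.140 to 0.221), and *Hes6* to *Hes1* in NPC(+) (2.89 to 2.95) lay above both NPC and NSC. With 3 libraries against 3 an exact permutation test cannot give a two-sided p under 0.10, and these ratios are given as a description.

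Upstream of these genes, ligands and receptors were called in both directions in NPC(+) against NPC, where 21.6% of all genes tested were called higher and 22.7% lower. The median log2 fold change was -0.41 for ligands, -0.46 for receptors, -0.26 for enzymes and -0.34 for modulators, against 0.0 for all genes tested. Of 5 ligands, *Dll4*, a Delta-like ligand, was called higher in NPC(+) than in NPC (11.2 ± 1.3 against 1.21 ± 0.54 CPM, SD, n = 3, log2 fold change 3.30, edgeR adjusted p = 6.75e-06), and *Dll1* (-0.50) and *Jag1* (-0.77) were called lower, while *Dll3* (-0.41) and *Jag2* (-0.22) did not pass. Of 4 receptors, *Notch1* (-0.78) and *Notch2* (-1.18) were called lower and *Notch4* higher (1.04), from 1.03 to 2.19 CPM, and *Notch3* showed -0.15. These values are of RNA, whereas the study reports more Notch1 by antibody staining in cells with *Sox1* induction, the other direction. In the nuclear complex the coactivators *Maml1* (-0.81) and *Maml2* (-0.48) were called lower, and *Rbpj* (-0.33) and *Maml3* (-0.10) did not pass. Of 3 other genes known to follow Notch directly, *Dtx1*, a regulator of Notch, fell from 10.7 ± 1.5 to 1.03 ± 0.11 CPM (-3.38, adjusted p = 1.47e-07) and *Fabp7*, a lipid carrier of radial glia, from 743.4 ± 65.0 to 346.5 ± 22.0 (-1.10, 0.00485). *Nrarp*, a feedback inhibitor, had 3.94 ± 1.66 and 1.91 ± 0.46 CPM (-1.07, 0.111). Against the same shares of all genes, among 13 enzymes that modify or cut receptors 1 was higher and 6 lower, with the largest changes for *Poglut1*, a glucosyltransferase (-1.13), and *Aph1a*, a gamma-secretase subunit (1.02). Among 11 modulators 3 were higher and 5 lower, led by the ubiquitin ligases *Neurl1a* (2.09) and *Mib2* (-1.60).

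The partners and antagonists of Hes proteins were measured too. Among 7 proneural factors, a class that Hes1 and Hes5 are known to repress, 1 was called higher in NPC(+) than in NPC and 1 lower, beside 21.6% and 22.7% of all genes. *Neurod1* was the 1 called higher (22.0 ± 1.6 against 14.5 ± 1.8 CPM, SD, n = 3, log2 fold change 0.59, edgeR adjusted p = 0.00476). All 4 Id genes, whose proteins bind helix-loop-helix partners without binding DNA, were called higher in NPC(+), beside 21.6% of all genes. The log2 fold changes were 0.91 for *Id1*, 0.65 for *Id2*, 2.56 for *Id3* and 1.40 for *Id4*. These genes were named after their values were seen. All 4 were also called higher in NSC than in NPC, beside 44.4% of all genes. In NR 2 were called higher than in NPC and 1 lower, beside 45.6% and 34.1%. Of 6 corepressors of the Groucho (Tle) family, through which Hes proteins act, 2 were higher in NPC(+) than in NPC and 3 lower. Of 3 related bHLH repressors 1 was higher in NPC(+) and 1 lower, again beside 21.6% and 22.7% of all genes. These lists are small and were chosen with results of these data known.

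**Figure D4:**
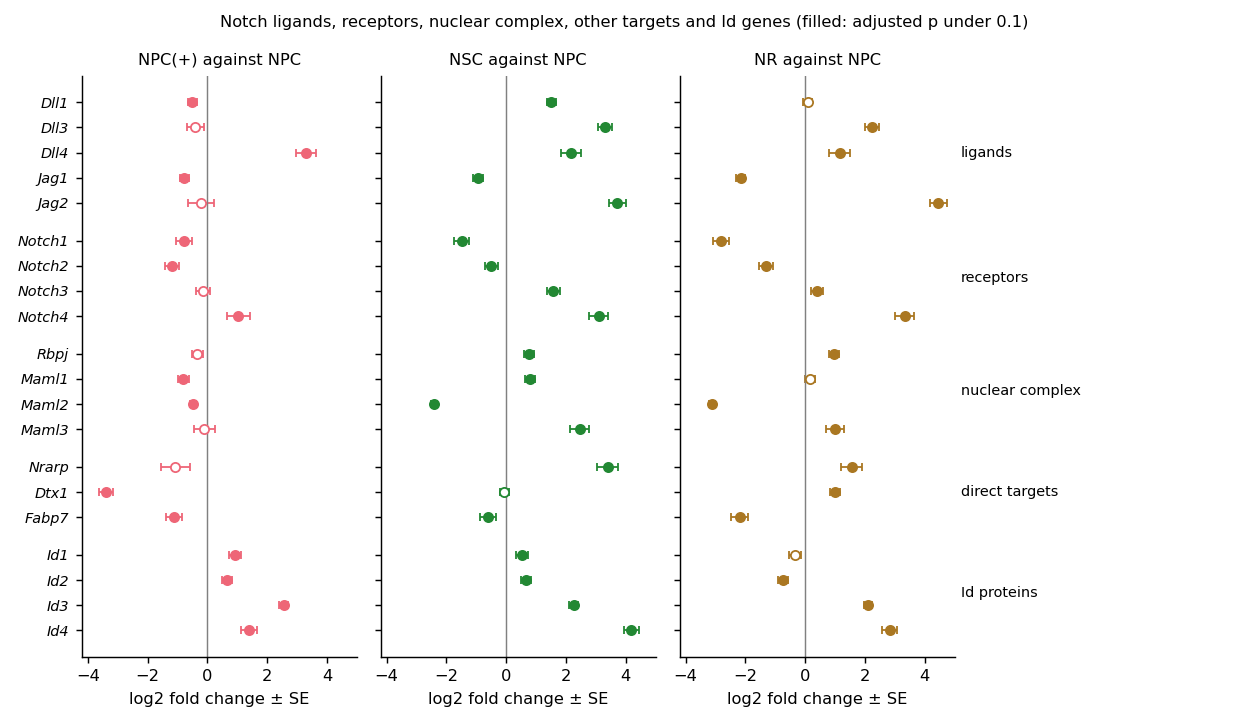
Log2 fold change (x axis) with its standard error for Notch ligands, receptors, the nuclear complex, 3 other direct targets and the Id genes (y axis) in NPC(+), NSC and NR, each against NPC, with filled points for an adjusted p under 0.1. The 3 panels share the NPC libraries. *Dll4* was higher in NPC(+) (3.30), NSC (2.18) and NR (1.15), and *Notch1* and *Notch2* were lower in all 3 panels.

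In NSC, set against the same NPC libraries, 4 of 5 ligands were called higher and 1 lower, beside 44.4% and 33.7% of all genes tested, with a median log2 fold change of 2.18 against 0.20 for all genes. The ligands higher in NSC were *Dll1* (194.0 ± 22.6 against 68.2 ± 4.2 CPM, log2 fold change 1.51), *Dll3* (3.31), *Dll4* (2.18) and *Jag2* (3.72), and *Jag1* was lower (-0.94). *Notch3* (1.58) and *Notch4* (3.09) were higher and *Notch1* (-1.49) and *Notch2* (-0.50) lower, and in the nuclear complex *Rbpj* (0.77), *Maml1* (0.78) and *Maml3* (2.46) were higher and *Maml2* lower (-2.42). *Nrarp* was higher (40.8 ± 7.6 CPM, 3.39), *Fabp7* lower (-0.61) and *Dtx1* showed -0.06. The largest changes among enzymes were those of *Aph1a* (-2.03) and *Mfng* (1.70), among modulators *Neurl1b* (-4.90) and *Dtx4* (3.67), and among proneural factors *Neurog1*, with 19.2 ± 2.0 CPM in NSC and reads at the floor in NPC, and *Neurod4* (7.09).

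In NR 3 of 5 ligands were called higher than in NPC, *Dll3* (2.23), *Dll4* (1.15) and *Jag2* (4.46), with *Jag1* lower (-2.16) and *Dll1* at 0.10. Of all genes tested 45.6% were called higher and 34.1% lower in this comparison, and the ligands had a median log2 fold change of 1.15 against 0.19 for all genes. *Notch3* (0.41) and *Notch4* (3.33) were higher and *Notch1* (-2.82) and *Notch2* (-1.31) lower. *Rbpj* (0.97) and *Maml3* (1.01) were higher, *Maml2* lower (-3.11) and *Maml1* at 0.15. All 3 direct targets passed, *Nrarp* (1.55) and *Dtx1* (1.00) higher and *Fabp7* lower (-2.19). Against NSC, the receptors *Notch1*, *Notch2* and *Notch3* and the ligands *Dll1*, *Dll3*, *Dll4* and *Jag1* were lower in NR, and *Jag2* was higher. Of all genes tested 30.0% were called higher and 26.6% lower in NR against NSC. The 3 direct targets went in both directions there, with *Nrarp* (-1.84, edgeR adjusted p = 2.17e-04) and *Fabp7* (-1.58, 3.07e-04) lower in NR and *Dtx1* higher (21.2 ± 1.6 against 10.2 ± 1.1 CPM, 1.06, 5.98e-05). The largest changes against NPC were *Aph1a* (-2.59) and *Lfng* (-1.98) among enzymes, *Neurl1b* (-5.11) and *Neurl1a* (3.37) among modulators, and *Neurog1*, at 8.94 ± 2.93 CPM in NR, and *Neurod4* (5.73) among proneural factors.

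The genes whose pattern over the 12 libraries was most like that of each member were taken by Pearson's r of log2 CPM among 16926 genes. For *Hes5* these were *Ephb1* (0.970), *Tmem164* (0.953) and *Ago1* (0.952), and only 31 genes exceeded 0.9. For *Hey1* they were *Cdc42se2* (0.988), *Gadd45g* (0.983) and *Tmem167b* (0.976), with 192 genes over 0.9. For *Hes1* they were *Rasa3* (0.996), *Fads1* (0.991) and *Abhd16a* (0.991), with 646 over 0.9, and for *Hes6* *Pdik1l* (0.988), *Gng7* (0.986) and *Ago4* (0.984), with 366. Of the members that were high in NSC and NR, *Hey2* had 383 genes over 0.9, *Hes3* 1350, *Hes2* 1719 and *Heyl* 2348. *Hes3* was nearest to the proneural gene *Neurog2* (0.987), then *Emilin2* (0.986) and *Shd* (0.984), and *Hes2* to *Th* (0.992), *Olig3* (0.989) and *Vsx1* (0.988). *Hey2* was nearest to *Gmip* (0.991), *Tmem169* (0.983) and *Msantd2* (0.978) and *Heyl* to *Ksr2* (0.994), *Dtx3l* (0.993) and *Larp6* (0.993). Among the members themselves *Hes1* and *Hes6* had an r of 0.924, *Hes1* and *Hes5* one of 0.469 and *Hes5* and *Hey1* one of 0.431. The 12 points fall into the 4 groups and share depth within them, so these values describe mostly the differences between groups.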

How the data were processed

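RNA was isolated with the PicoPure kit, amplified with SMART-Seq v4 and made into libraries with the MicroPlex kit. The authors deposited raw read counts per Ensembl gene for 12 libraries, without normalization. The submitters' processing notes name STAR 2.6, RSEM 1.1.14 and the build mm10 with no role, and the annotation, strand setting and read filters are not given in the sources used here. Without a stated strand setting, reads of *Hes5* and *Hes7* cannot be told apart from those of their overlapping antisense genes. Groups and replicates were taken from the sample titles. The 563 genes without a symbol in GENCODE M21 held 0.124% of the counts.

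Counts were scaled by TMM and filtered by filterByExpr, and 1 model of the 4 groups was fitted to all 12 libraries with glmQLFit in edgeR 4.0.16 (limma 3.58.1, R 4.3.3), with a prior count of 0.125 in the fold change. P values were adjusted over 17003 genes by the method of Benjamini and Hochberg and called under 0.1, the false discovery rate of the study. Standard errors were derived from the fold change and the F statistic, as |log2 fold change| over the root of F. Pooled ratios carry exact 95% binomial intervals. Expressed genes are those with a mean above 3 log2 CPM. Exon lengths are from GENCODE M21, promoters from RefSeq. The procedure was tested on simulated data. Further steps ran in Python 3.11.15 (pandas 2.3.3, numpy 2.4.6, scipy 1.17.1), with figures from matplotlib 3.10.9.

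The alternatives were DESeq2 1.42.0 (test and size factors), upper-quartile scaling, other filters, a prior count of 2, thinning to 3407066 counts, fits of only the groups compared, the replicate number as a block, stricter thresholds and the omission of each replicate. A fit without the NR libraries was added after seeing the values. Same-numbered NR and NSC libraries deviated together (r = 0.229, 0.490 and 0.296), so the numbers may pair these groups, though no label states a shared preparation. The main fit held no replicate block, so its p-values and standard errors for NR against NSC are unpaired. The block was run only as an alternative. The sources give replicates as made on different days, but not from which cultures each library came, so p-values measure the spread between these libraries.

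All 9 members were described, with the genes of 4 Notch lists (ligands, receptors, nuclear complex, direct targets), the 2 called genes with the largest change of 3 others (enzymes, modulators, proneural factors) and the 3 most alike genes for each member. A gene of these lists is not reported here. The Id genes were named after their values were seen. The members and lists were chosen with earlier results of these data known.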

Additional observations from a re-analysis of the deposited data

How the results depend on the processing

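With the thresholds of the study, which ask for a change of more than 4-fold, the number of members called was 4 in NSC against NPC, 3 in NR against NPC, 0 in NPC(+) against NPC, 0 in NR against NSC, 4 in NPC(+) against NSC and 4 in NPC(+) against NR. In the same order 25.0%, 28.0%, 5.79%, 7.46%, 22.2% and 26.1% of all genes tested passed. The members that passed were all among *Hes2*, *Hes3*, *Hey2* and *Heyl*, whose calls add no support against NPC or NPC(+). In NPC(+) against NPC 2 members in place of 1 were called without a filter on low counts, 2 with only the groups compared in the fit and 2 without the NR libraries, and the count ran from 1 to 2 when single replicates were left out, with 2 only without NR replicate 1. The second member was *Hes5* each time. *Heyl* in NR against NSC, not called in any alternative, changed sign without NSC replicate 2 (-0.15) and without NR replicate 2 (-0.28), and ran from -0.28 to 0.38 over the omitted replicates.

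Under the replicate block the counts were 8, 8, 1, 7, 8 and 8 members in the same order of comparisons, and no call of a member changed. Over all alternatives and comparisons calls of members were gained 6 times, 4 of them for *Hes5* in NPC(+) against NPC and 2 for *Hes7* in NPC(+) against NSC, and lost 15 times, by *Hes5*, *Hes2* and *Hes1*, and the cause was not tested. *Hes5* in NPC(+) against NPC had under the block a log2 fold change of 0.47 (edgeR, adjusted p = 0.182). Outside NR against NSC the correlations of same-numbered libraries lay between -0.047 and 0.062, so there they share only a number. TMM, DESeq2 and upper-quartile scaling put the median of all genes tested at 0.203, 0.245 and 0.240 in NSC against NPC. No direction of a called member flipped under another scaling. Depth limits what can be said of *Hes2*, *Hes3*, *Hes7*, *Hey2* and *Heyl* in NPC and NPC(+).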
